A study of Drosophila melanogaster with 12 samples.

Results

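Transplanted *ph505* tumours of 3 ages, 4, 8 and 14 weeks, were compared to ask how the expression of each gene moved as the tumours grew older. They were chosen by their labels alone and made up 6 of the 12 samples of the series, with 2 tumours at each age. The control discs and the metamorphed cells of the study were not used. The allele *ph505* removes the function of both *Polyhomeotic* genes, *ph-p* and *ph-d*. The mutant cells were marked clones made with the MARCM method in larval eye-antennal discs, the tissue that forms the eye, the antenna and the head capsule. The *ey-flp* recombinase that starts such clones also acts in the leg and genital discs. *FRT19A* was the recombination site, *tub-Gal80* repressed the marker outside the clones, and *act>STOP>Gal4 UAS-GFP* switched GFP on inside them. Pieces of tumour were passed every week into the abdomens of new adult *w1118* females, so that a tumour labelled 4 weeks had been transplanted 4 times, one of 8 weeks 8 times and one of 14 weeks 14 times. Age in weeks and the number of transplantations therefore cannot be told apart. The sources do not say whether tumours with the same number at different ages belonged to 1 line of transplants, and the p-values below measure only the spread between these samples.

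Polyhomeotic is a subunit of Polycomb repressive complex 1 (PRC1), which binds chromatin and keeps developmental regulators silent in cells where they are not needed. When it is lost, imaginal disc cells lose their identity and overgrow, and signalling through the JAK/STAT and Notch pathways is among the known targets of PRC1 in this tissue. In an adult host, transplanted disc tissue does not meet the ecdysone pulse that ends larval growth. The zinc finger protein Chinmo marks an immature state in several fly tissues and is a known target of the microRNA *let-7*. The questions of interest here were which genes differed steadily with tumour age and which departed from a straight course at 8 weeks.

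The tumours held 16619078 to 24144498 reads on genes each, and 3 reads corresponded to 0.121 to 0.203 CPM, the reads of a gene scaled to the size of its library. Of 17521 genes, 7982 reached 1 CPM in 2 or more of the 6 tumours and were tested. The second 14-week tumour stood apart: 57 genes were over 4-fold above and 23 over 4-fold below all 5 other tumours there, whereas no other tumour had more than 9 genes above or 31 below. Its library scaling factor was 0.611, against 0.965 to 1.149 in the other 5 tumours, and 1 gene that the annotation does not name, FBgn0085364, took 13.75% of its reads, against 3.11% to 5.94%. Of 34 genes that mark the host's gut, 20 were at 0 in all 6 tumours and the sum was 0.0404 to 2.37 CPM, and 10 of 10 Y-linked genes were at 0. Fat body genes summed to 803 and 1160 CPM after 4 weeks, 670 and 712 after 8, and 528 and 1000 after 14, with 6 of 20 genes at 0, and the haemocyte genes to 82.1 to 141 CPM. In the list of muscle genes, whose actin and tropomyosin members are also used by other cells, the sums were 2480 and 2310 CPM in the 4-week tumours, 1770 and 2650 in those of 8 weeks, and 2800 and 4270 in those of 14 weeks. On the deposited scaling the sums of both 14-week tumours were the highest. In 4 of 8 tested genes of this list both 14-week tumours were above both 4-week tumours and in 0 below, beside 17.8% and 16.2% of all genes. The sarcomere gene *Mhc* had 0 CPM in both 4-week tumours and 0.0557 and 2.63 CPM in those of 8 weeks. At 14 weeks it had 2.91 and 10.6 CPM. The actin gene *Act87E* had 70 and 56 CPM at 4 weeks and 92.6 and 24.1 at 14 weeks, and *Act79B* did not pass 0.557 CPM. Ovary genes summed to 3.55 to 23 CPM, tubule genes to 37.3 to 149 CPM and tracheal genes to 385 to 901 CPM. The part of host tissue in the results was not tested. In bulk tissue fewer cells of a type and less RNA per cell cannot be told apart.

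The labelled tissue was checked against the genes of retinal determination, the network that commits disc cells to eye fate. Of 11 genes, 8 were tested. The eye selector gene *ey* had 11.3 and 0.401 CPM at 4 weeks, 0.501 and 7.85 at 8 weeks, and 1.01 and 7.52 at 14 weeks. Its paralogue *toy* did not pass 0.612 CPM and *eya*, a partner of *so*, did not pass 1.22 CPM in any tumour. *so* itself had at most 3.6 CPM and was at 0 in the first 14-week tumour. The genes *Optix*, *hth*, *eyg*, *toe* and *dac* were detected in all 6 tumours, *Optix* at 58.1 to 334 CPM. Some eye disc markers were thus at or near 0 at all 3 ages, and the label names the tissue the tumours came from.

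Tumours of the same age differed about as much from each other as tumours of different ages. The distance between samples was measured as the root mean square difference of log2(CPM + 1) over the tested genes. The 2 tumours of 4 weeks were 0.97 apart, those of 8 weeks 0.64 and those of 14 weeks 1.19, with a mean of 0.93. Between ages it averaged 1.05 and lay between 0.74, for the first 8-week and the first 14-week tumour, and 1.38, for the second 8-week and the second 14-week tumour. The pair at 14 weeks was therefore farther apart than most pairs of unlike age. The first principal component held 43.6% of the variance and set the second 14-week tumour (-71.3) and the second 4-week tumour (-31.9) apart from the other 4 (8.8 to 46.5). The second component held 24.4% and ran with age, with 52.1 and 27.6 at 4 weeks, -8.4 and -16.5 at 8 weeks, and -26.9 and -27.9 at 14 weeks.

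**Figure D1:**
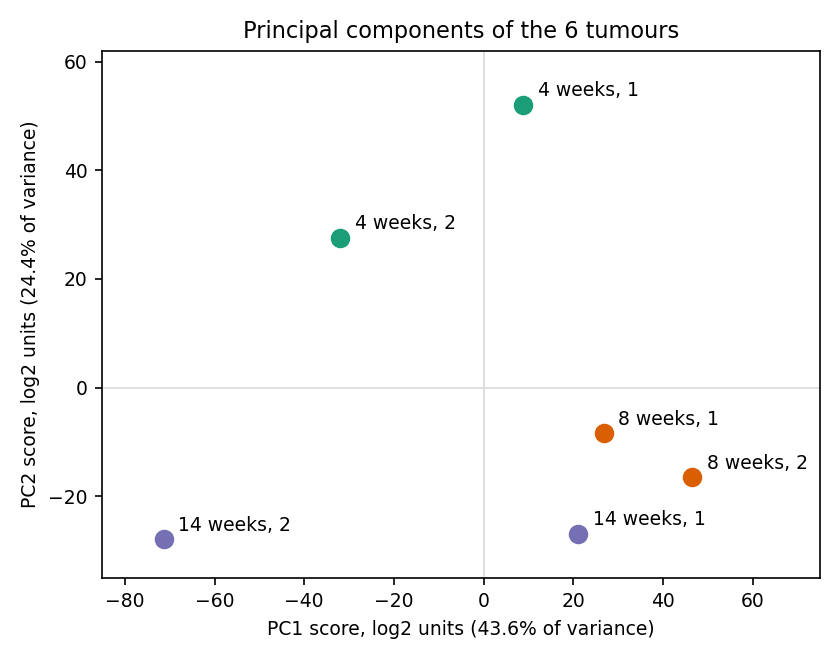
Scores of the 6 tumours on the first (x axis, 43.6% of variance) and second (y axis, 24.4%) principal components of log2(CPM + 1) over 7982 genes, 1 point for each tumour, coloured by age in weeks. The second component places the tumours in the order of their age, while the first separates the second tumours at 4 and 14 weeks from the other 4.

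For each gene a straight line over age in weeks was fitted to log2(CPM + 1) with limma, and its value is given as the fitted log2 difference from 4 to 14 weeks. No gene passed an adjusted p of 0.05, with Benjamini-Hochberg adjustment over all 7982 genes (0 called, 0%), and the smallest adjusted p was 0.161. At an unadjusted p under 0.05 there were 515 genes, 255 with a positive trend (3.19%) and 260 with a negative trend (3.26%). With limma-voom on the recovered reads 0 genes were called and 428 had an unadjusted p under 0.05. The median standard error of a trend was 0.63, the precision that 2 tumours at each age gave. Leaving out the second 14-week tumour gave 23 called genes, with the remaining 14-week tumour assumed to vary like those of the other ages.

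Counted without a test, 132 genes (1.65%) stood in the order of age without overlap, with both 4-week tumours below both 8-week tumours and these below both 14-week tumours. Another 191 (2.39%) stood in the opposite order. Both counts depended on the scaling: with CPM of total reads, 45 genes were in the rising order and 331 in the falling order. That scaling set the median trend of all genes to -0.29, against 0.07 with the deposited scaling, and the share of genes with a positive trend to 34.5%, against 53.5%. Levels below are therefore relative to the bulk of genes, and age orders of single genes are on the deposited scaling. With CPM of total reads, *dpr17*, *E23* and *pxb* keep the rising order given below. FBgn0028993, *upd1*, *shg*, *Gli*, *fz*, *fz2*, *slp2* and *RnrL* lose it, as the second 14-week tumour then lies below an 8-week tumour.

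The genes with the smallest p on the positive side had low levels at 4 weeks. *dpr17* (FBgn0051361, dm6 chromosome 3R, 12094876 to 12111420) encodes a cell surface protein of the immunoglobulin family, whose relatives act in recognition between neurons. It had 0 and 0.312 CPM after 4 weeks, 1.67 and 1.46 after 8, and 12.7 and 18.6 after 14. The 3 ages did not overlap. Its trend was 3.89 on the log2(CPM + 1) scale (SE 0.68), with a limma adjusted p of 0.161. *E23*, an ABC transporter gene that ecdysone induces and that restrains the ecdysone response, had 0 and 0.757 CPM in the 4-week tumours, 5.68 and 3.84 in those of 8 weeks, and 15.1 and 20.6 in those of 14 weeks, with a trend of 3.74 (SE 0.70) and an adjusted p of 0.186. It too was ordered by age without overlap.

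The other 4 genes on this side had the same low start. *CG17646* had 0.286 and 1.87 CPM at 4 weeks, 1.5 and 4.65 at 8 weeks, and 27.5 and 45.5 at 14 weeks. *CG9503* had 0.0409 and 0.134 CPM after 4 weeks, 0.111 and 2.51 after 8, and 20.9 and 18.2 after 14. In both genes the 14-week tumours stood alone and the 4- and 8-week tumours overlapped. *pxb* had 0.0818 and 3.12 CPM in the 4-week tumours, 3.34 and 4.61 in those of 8 weeks, and 40.9 and 20.6 in those of 14 weeks. FBgn0028993, which the annotation does not name, had 0.0818 and 0.223 CPM at 4 weeks, 5.01 and 17 at 8 weeks, and 26 and 23 at 14 weeks, and like *pxb* it was ordered by age without overlap. None of the 4 passed the test.

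On the negative side 5 of the 6 genes were ordered by age. *CG11275* had 263 and 226 CPM after 4 weeks, 185 and 143 after 8, and 39.3 and 37.4 after 14, a trend of -2.70 (SE 0.47) with a limma adjusted p of 0.161. *CG14695* had 103 and 141 CPM in the 4-week tumours, 55.6 and 70.4 in those of 8 weeks, and 20.9 and 18.9 in those of 14 weeks, a trend of -2.55. In both the 3 ages formed separate steps. *CG17549* had 1080 and 602 CPM at 4 weeks, 450 and 405 at 8 weeks, and 87.5 and 240 at 14 weeks, and *CR43086*, annotated as a pseudogene, 28.4 and 10.6 CPM after 4 weeks, 5.18 and 5.86 after 8, and 0.444 and 0 after 14. These were ordered by age as well. *CG11893* had 230 and 89.3 CPM in the 4-week tumours, 40.9 and 85.3 in those of 8 weeks, and 24 and 4.61 in those of 14 weeks. *CG9119* had 46 and 109 CPM at 4 weeks, 36 and 55 at 8 weeks, and 5.57 and 8.6 at 14 weeks. The first was ordered by age, whereas in the second the 4- and 8-week tumours overlapped. The trends of the 6 genes ran from -3.95 in *CR43086* to -2.47 in *CG17549*.

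**Figure D2:**
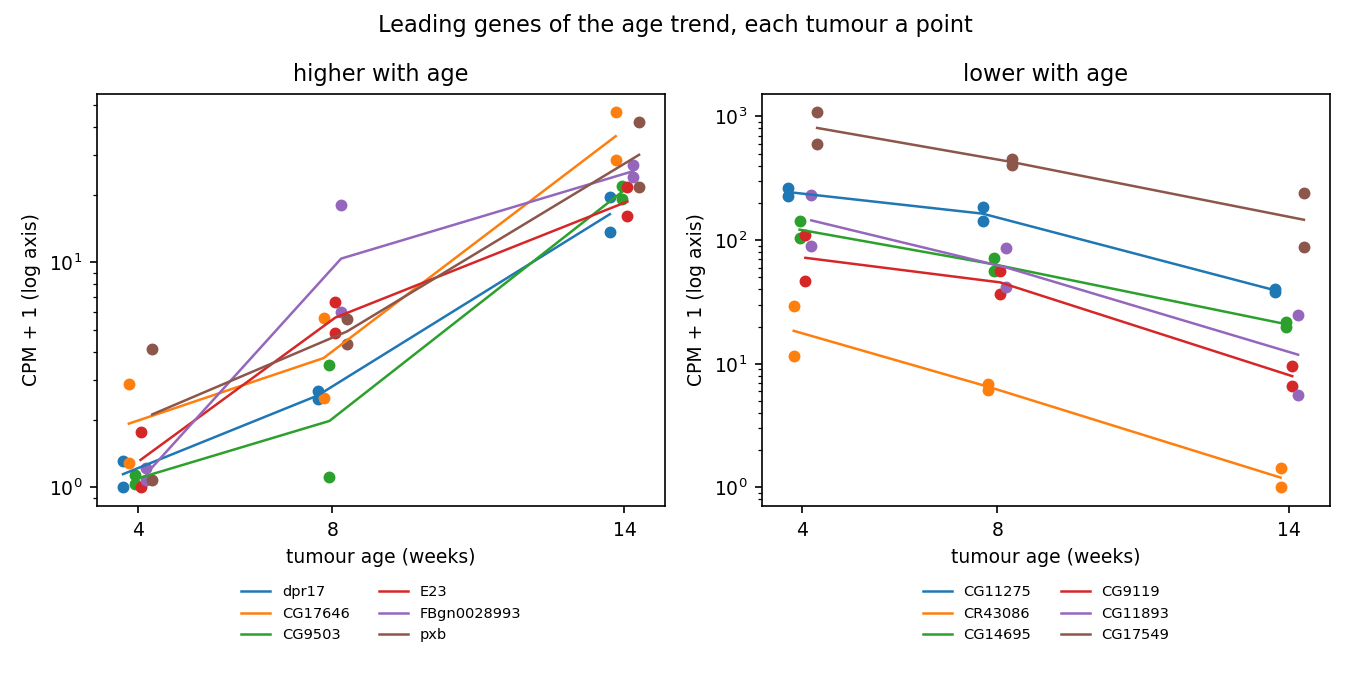
CPM (log axis, 1 added) against tumour age in weeks for the 12 genes with the smallest unadjusted p for the age trend whose 4- and 14-week tumours did not overlap, 6 with a positive (left panel) and 6 with a negative trend (right panel), 1 colour for each gene, 1 point for each tumour and a line through the age means. In each gene the 2 tumours of an age lie closer together than the means of 4 and 14 weeks, and no gene passed an adjusted p of 0.05.

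The study turned on a small set of genes, and these are given next. *ph-p* had 121 and 73.5 CPM after 4 weeks, 114 and 142 after 8, and 99.5 and 164 after 14, and *ph-d* had 43.9 to 132 CPM over all 6 tumours, with the ages overlapping. Transcripts of both genes were counted in every tumour, and a read on them does not show a working protein. *chinmo* (FBgn0086758, dm6 chromosome 2L, 1651258 to 1704682) had 3310 and 1810 CPM in the 4-week tumours, 1310 and 1750 in those of 8 weeks, and 1320 and 937 in those of 14 weeks. On the deposited scaling both 4-week tumours were above the other 4, the second only by a narrow margin (1810 against 1750 CPM). With CPM of total reads the second 8-week tumour lies above the second 4-week tumour. The 8- and 14-week tumours overlapped, and the trend of -1.11 (SE 0.58) did not pass the test (limma adjusted p of 0.807). At the *let-7* locus, *lncRNA:let7C*, 5 of the 6 tumours had no read, which allows up to 0.121 to 0.203 CPM, and the second 8-week tumour had 0.607 CPM.

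The ecdysone receptor gene *EcR* had 102 to 168 CPM, and its 2 tumours of 14 weeks, 103 and 168 CPM, spanned nearly that whole range. Its partner *usp* had 23.8 and 30 CPM at 4 weeks, 66.5 and 58.1 at 8 weeks, and 38.9 and 12.3 at 14 weeks. *MED24*, a Mediator subunit, had 10.7 and 9.13 CPM after 4 weeks, 68.7 and 61.7 after 8, and 32.5 and 2.71 after 14. In both genes the 8-week tumours were above the other 4, and the 14-week tumours lay on either side of the 4-week ones. *BRWD3*, a bromodomain gene, had 15 to 45.6 CPM and the Hox gene *Abd-B* had 135 to 216 CPM, with the 8-week tumours overlapping the others in both. The neuronal gene *elav* had 44.5 and 24.4 CPM in the 4-week tumours, 28.7 and 28.7 in those of 8 weeks, and 51.5 and 45.6 in those of 14 weeks, so that the 14-week tumours were the highest by a narrow margin. *ab*, a zinc finger gene, had 1750 and 1740 CPM at 4 weeks, 961 and 1200 at 8 weeks, and 1160 and 2850 at 14 weeks. *Eip93F*, an ecdysone-induced regulator of metamorphosis, did not pass 1.63 CPM and was not tested. *Imp* and *br* were not matched to the table and were not analysed here.

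Of the 18 tested genes of the ecdysone cascade, 11 had a positive trend beside 53.5% of all genes, and 3 had an unadjusted p under 0.05 on the positive side and 0 on the negative side, beside 3.19% and 3.26% of all genes. They were *E23*, *ImpE1* and *Hr38*, each induced by ecdysone or a receptor of its cascade. *ImpE1* had 1.51 and 3.29 CPM after 4 weeks, 16.9 and 6.75 after 8, and 27.8 and 12.1 after 14, so both 4-week tumours were the lowest and the later ages overlapped. The median trend of the list was 0.35 and -0.04 with CPM of total reads.

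JAK/STAT signalling drives growth of disc tumours through the secreted Unpaired ligands, the receptor Domeless, the kinase Hopscotch and the transcription factor Stat92E. All 10 tested genes of the list had a positive trend beside 53.5% of all genes, with a median of 0.42 beside 0.07 over all genes. With CPM of total reads 6 of 10 were positive and the median was 0.03, so the common direction depended on the scaling. Only the ligand gene *upd1* had an unadjusted p under 0.05. It had 0.0409 and 1.02 CPM in the 4-week tumours, 3.73 and 5.78 in those of 8 weeks, and 6.26 and 8.47 in those of 14 weeks, in order of age without overlap, and its trend of 2.39 (SE 0.76) did not pass the test (limma adjusted p of 0.653). *Ptp61F*, a phosphatase that limits the pathway, had the smallest trend of the list, at 0.24. The factor *Stat92E* itself had 134.7 and 61.2 CPM at 4 weeks, 208 and 273.9 at 8 weeks, and 159 and 113 at 14 weeks, highest at 8 weeks.

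The JNK pathway responds to stress and to loss of cell polarity, and its targets include the matrix metalloprotease *Mmp1* and the relaxin-like hormone *Ilp8*, which delays metamorphosis. Of 19 tested genes 16 had a positive trend beside 53.5% of all genes, with a median of 0.55. With CPM of total reads 13 were positive and the median was 0.16, and with the trend on transcript length removed it was 0.33. In 9 both 14-week tumours were above both 4-week tumours and in 0 both were below, beside 17.8% and 16.2% of all genes. *Mmp1* had 100 and 93.9 CPM after 4 weeks, 148 and 197 after 8, and 231 and 157 after 14, so both older ages were above the 4-week tumours and overlapped each other. *Ilp8* had 0.204 and 34.3 CPM in the 4-week tumours, 15.1 and 15.7 in those of 8 weeks, and 30.8 and 46.5 in those of 14 weeks. The 2 tumours of 4 weeks were thus the lowest and the second highest, beside a fitted trend of 2.54. *scaf*, a target expressed at the edges of closing epithelia, had 2.58 and 15.8 CPM at 4 weeks, 19.4 and 5.74 at 8 weeks, and 42 and 19.2 at 14 weeks, with a trend of 1.95. The kinase gene *bsk* had the most negative trend, -0.69, with 296 and 142 CPM after 4 weeks, 177 and 155 after 8, and 266 and 60 after 14.

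Genes of epithelial polarity and cell junctions place the apical domain and hold cells together. Of 19 tested, 17 had a positive trend beside 53.5% of all genes, with a median of 0.53, and in 10 both 14-week tumours were above both 4-week tumours, beside 17.8%. With CPM of total reads 13 were positive and the median was 0.15, and with the trend on transcript length removed it was 0.28. *shg*, which encodes E-cadherin, had 23.7 and 30 CPM in the 4-week tumours, 46.9 and 54.6 in those of 8 weeks, and 89.9 and 66.8 in those of 14 weeks, a trend of 1.47 (SE 0.50) with a limma adjusted p of 0.721. The septate junction gene *Gli* had 10.4 and 7.17 CPM at 4 weeks, 21.8 and 28.5 at 8 weeks, and 32.1 and 33.5 at 14 weeks, a trend of 1.71. Both stood in the order of age without overlap on the deposited scaling only. *baz*, an apical scaffold gene, had the most negative trend, with 461.9 and 427 CPM after 4 weeks, 151 and 207 after 8, and 241 and 202 after 14, the 4-week tumours above all others.

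Wnt signalling patterns the discs, and its list was split. Of 16 tested genes 9 had a positive and 7 a negative trend, with a median of 0.11. The ligand gene *Wnt4* had 387 and 421 CPM in the 4-week tumours, 313 and 329 in those of 8 weeks, and 105 and 189 in those of 14 weeks, in falling order without overlap (trend -1.54, SE 0.47, limma adjusted p of 0.625). The receptor genes *fz* and *fz2* were on the other side. In *arr*, also of this list, the 4-week tumours (10.5 and 15.7 CPM) and the 14-week tumours (17.5 and 13.2 CPM) overlapped. *fz* had 9.2 and 24.8 CPM at 4 weeks, 30.9 and 30.2 at 8 weeks, and 44 and 53.6 at 14 weeks, and *fz2* had 0.859 and 3.52 CPM after 4 weeks, 7.4 and 6.35 after 8, and 10.2 and 9.14 after 14. Both were ordered by age on the deposited scaling only. The feedback inhibitor *nkd* had 74.3 and 105 CPM in the 4-week tumours, 96.3 and 105 in those of 8 weeks, and 178 and 177 in those of 14 weeks, where only the 14-week tumours stood apart. The gene *wg* was not matched and was not analysed here.

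Hox genes give segments their identity and are classic Polycomb targets. Of 7 tested, 4 had a positive trend and no direction was shared. *Antp* had 114 and 206 CPM at 4 weeks, 66.7 and 127 at 8 weeks, and 45 and 54.5 at 14 weeks, a trend of -1.60 (SE 0.51, limma adjusted p of 0.656). *abd-A* had 40.1 and 15 CPM after 4 weeks, 23.9 and 21 after 8, and 74.3 and 55.3 after 14, with the 14-week tumours above the other 4 and a trend of 1.43. The Polycomb genes themselves had trends from -0.64 in *escl* to 0.62 in *Sfmbt*, with 11 of 18 positive, beside 53.5% of all genes. At an unadjusted p under 0.05 there were 0 in either direction, beside 3.19% of all genes on the positive and 3.26% on the negative side.

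Embryonic segmentation factors, which include gap, pair-rule and segment polarity genes, are also Polycomb targets and are not all used in discs. Of 22 genes 15 were tested, and 5 had a positive trend (4 with CPM of total reads), beside 53.5% of all genes. The median was -0.56, and without the second 14-week tumour it was -0.14, with 7 positive. The pair-rule gene *prd* had 12.6 and 6.81 CPM in the 4-week tumours, 12.9 and 17.7 in those of 8 weeks, and 0.0404 and 0 in those of 14 weeks, which is 1 read in the first 14-week tumour and none in the second. It was present in all 4 younger tumours, and its trend of -3.60 (SE 0.92) on the log2(CPM + 1) scale did not pass the test (limma adjusted p of 0.531). *slp2* was at the other end, with 0.0409 and 0.178 CPM at 4 weeks, 3.34 and 1.13 at 8 weeks, and 3.92 and 4.4 at 14 weeks, ordered by age with a trend of 2.14.

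Single genes of smaller groups also had 4- and 14-week tumours that did not overlap, which is common over all genes. The 14-week tumours were above the 4-week ones in 17.8% of all genes and below in 16.2%. Of 4 tested glial genes this was 1 above and 1 below, and of 36 detoxification genes 4 above and 7 below. Among glial genes *moody*, a receptor of the blood-brain barrier, had 0.45 and 0.178 CPM after 4 weeks, 1.89 and 6.31 after 8, and 16.4 and 7.99 after 14. *alrm*, an astrocyte gene, had 17.2 and 2.76 CPM in the 4-week tumours, 2.89 and 3.76 in those of 8 weeks, and 0.0404 and 1.08 in those of 14 weeks. The summed CPM of the 11 glial genes was 449 and 290 in the second tumours of 4 and 14 weeks and 1250 to 1460 in the other 4, and the part of glial cells in these results was not tested. Among 36 tested genes of oxidative stress and detoxification, 3 had an unadjusted p under 0.05 in each direction, beside 3.19% of all genes on the positive and 3.26% on the negative side. *GstD5* had 4.95 and 17.2 CPM at 4 weeks, 5.18 and 3.84 at 8 weeks, and 0.202 and 0.0677 at 14 weeks, whereas its neighbour in the same family, *GstD2*, had 0.0409 and 4.23 CPM after 4 weeks, 3.79 and 2.35 after 8, and 20.9 and 13.7 after 14. The 14-week tumours were the lowest for one glutathione transferase gene and the highest for the other, and reads shared between these similar genes could be split by the counting.

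The most uniform group was that of the cytosolic ribosomal proteins, and the size of its trend rested on 1 tumour. All 79 tested genes had a positive trend, with a median of 1.11, and 9 had an unadjusted p under 0.05, beside 3.19% of all genes. The mean log2(CPM + 1) of the list was 9.17 and 9.88 at 4 weeks, 9.49 and 8.92 at 8 weeks, and 9.69 and 11.4 at 14 weeks. The second 14-week tumour was highest. Without it the median trend was 0.13, with 58 of 79 positive, beside 51.5% of all genes. *RpL11*, the gene with the largest trend of the list, had 355 and 580 CPM in the 4-week tumours, 563 and 312 in those of 8 weeks, and 646 and 2933 in those of 14 weeks. Of 65 nuclear-encoded respiratory chain genes 55 had a positive trend, with a median of 0.83 that became -0.19 without that tumour. Of 70 mitochondrial ribosomal protein genes 53 were positive, and the median of 0.50 became -0.51. The direction of both lists was thus set by 1 library.

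Transcript length moved with the same libraries. When the tested genes were split into 5 equal groups by length, those of the shortest group deviated from their own mean by a median of -0.08 and 0.41 at 4 weeks, -0.29 and -0.69 at 8 weeks, and -0.31 and 0.96 at 14 weeks, on the log2(CPM + 1) scale. Those of the second longest group, 2408 to 3895 bases long, deviated by -0.18 and -0.54 at 4 weeks, 0.33 and 0.55 at 8 weeks, and 0.22 and -0.34 at 14 weeks. Those of the longest group deviated by -0.12 and -0.38 at 4 weeks, 0.01 and 0.41 at 8 weeks, and 0.12 and 0.03 at 14 weeks. The shortest transcripts were thus relatively high in the second tumours of 4 and 14 weeks, and the longest were low in the first of these 2 and near their mean in the other. The median transcript of the 79 ribosomal protein genes had 887 bases, beside 2022 bases for all tested genes. With the trend on transcript length removed, the median trend of the ribosomal protein genes was 1.00, with 78 of 79 positive, that of the respiratory chain genes 0.61 and that of the mitochondrial ribosomal protein genes 0.17.

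**Figure D3:**
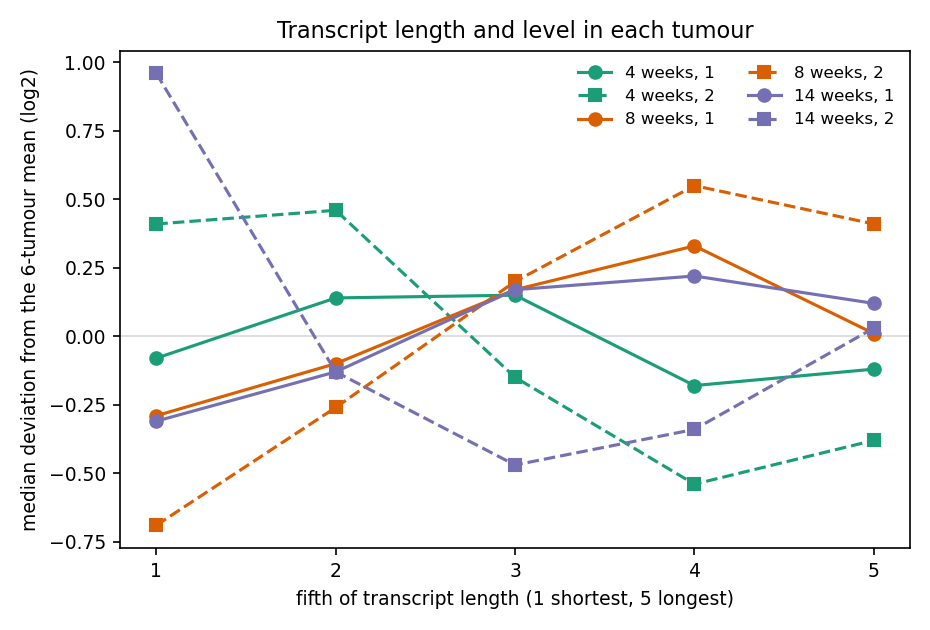
Median deviation of log2(CPM + 1) from each gene's mean over the 6 tumours (y axis) for 5 groups of tested genes of equal size by transcript length (x axis, shortest to longest), 1 line for each tumour. The shortest group reaches 0.96 in the second 14-week tumour and -0.69 in the second 8-week tumour.

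The other question was which genes left the straight course at 8 weeks. For each gene the mean of the 8-week tumours was set against the value on the line between the means of 4 and 14 weeks, and the difference is called the departure. No gene passed the test (limma, 0 called, 0%, smallest adjusted p of 0.417). At an unadjusted p under 0.05 there were 874 genes, 618 with a positive departure (7.74%) and 256 with a negative one (3.21%), and limma-voom called 0 genes, with 971 at an unadjusted p under 0.05. The median standard error of a departure was 0.50. A test for any difference among the 3 ages called 0 genes as well (smallest adjusted p of 0.33, 808 at an unadjusted p under 0.05), and so did 14 against 4 weeks (0.115, 676 genes). The result depended on 1 tumour: without the first 14-week tumour, with the second assumed to vary like the other ages, 676 genes passed for the departure, 325 above and 351 below the line. Both 8-week tumours lay above the other 4 in 1057 genes (13.2%) and below them in 785 (9.83%). With a trend on transcript length removed the first count was 627, and with CPM of total reads the second was 489.

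The genes with the smallest p above the line were several times higher at 8 weeks than at 4 weeks. *CG7369* (FBgn0037188, dm6 chromosome 3L, 22741793 to 22748614) had 25.7 and 20.9 CPM at 4 weeks, 123 and 111 at 8 weeks, and 38.9 and 26.5 at 14 weeks, a departure of 2.11 (SE 0.41). *Unc-76*, which encodes a kinesin-binding protein of axonal transport, had 11.9 and 14.7 CPM after 4 weeks, 82.4 and 113 after 8, and 62.6 and 35.6 after 14. *CalpC*, a gene of the calpain protease family, had 24 and 23.8 CPM in the 4-week tumours, 124 and 168 in those of 8 weeks, and 60.7 and 15.7 in those of 14 weeks. In these genes the 8-week tumours stood above the other 4. *CG9636* had 36.9 and 22.4 CPM at 4 weeks, 189 and 161 at 8 weeks, and 68.4 and 23.7 at 14 weeks. *CG2321* had 0 and 0.312 CPM after 4 weeks, 7.68 and 6.51 after 8, and 0.0404 and 0.135 after 14, so that it was close to 0 at both other ages. FBgn0032915, which the annotation does not name, had 13.3 and 8.77 CPM in the 4-week tumours, 71.7 and 87.7 in those of 8 weeks, and 27.8 and 24.7 in those of 14 weeks. The 6 departures ran from 2.07 in *Unc-76* to 2.85 in *CG2321*, each with an adjusted p of 0.417.

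Below the line stood *fng*, *side-V* and 4 others. *fng* (FBgn0011591, dm6 chromosome 3L, 20925891 to 20949512) encodes the glycosyltransferase that modifies Notch and sets which ligand it answers. It had 29.2 and 35.7 CPM at 4 weeks, 14.2 and 13.9 at 8 weeks, and 64.2 and 70.7 at 14 weeks, a departure of -1.56 (SE 0.43). The replicates were close at every age and the 3 ages did not overlap. *side-V*, of the Sidestep family of cell surface proteins, had 17.5 and 6.28 CPM after 4 weeks, 0.334 and 0.202 after 8, and 5.86 and 3.45 after 14. The hairpin RNA gene *hpRNA:CR33940* had 9.69 and 12.7 CPM in the 4-week tumours, 0 and 0.0809 in those of 8 weeks, and 0.687 and 4.47 in those of 14 weeks. Both stood at 0.334 CPM or less at 8 weeks and higher at the other ages. *CG10126* had 119 and 156 CPM at 4 weeks, 44.2 and 43.9 at 8 weeks, and 102 and 334 at 14 weeks. *CG15861* had 63.8 and 94.3 CPM after 4 weeks, 21.8 and 20.6 after 8, and 49.7 and 62.9 after 14. *CG40485* had 110 and 47.3 CPM in the 4-week tumours, 26.6 and 23.7 in those of 8 weeks, and 117 and 376 in those of 14 weeks. The 2 tumours of 8 weeks agreed closely in these genes while the 14-week tumours of *CG10126* and *CG40485* lay far apart, and all 6 had an adjusted p of 0.417.

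**Figure D4:**
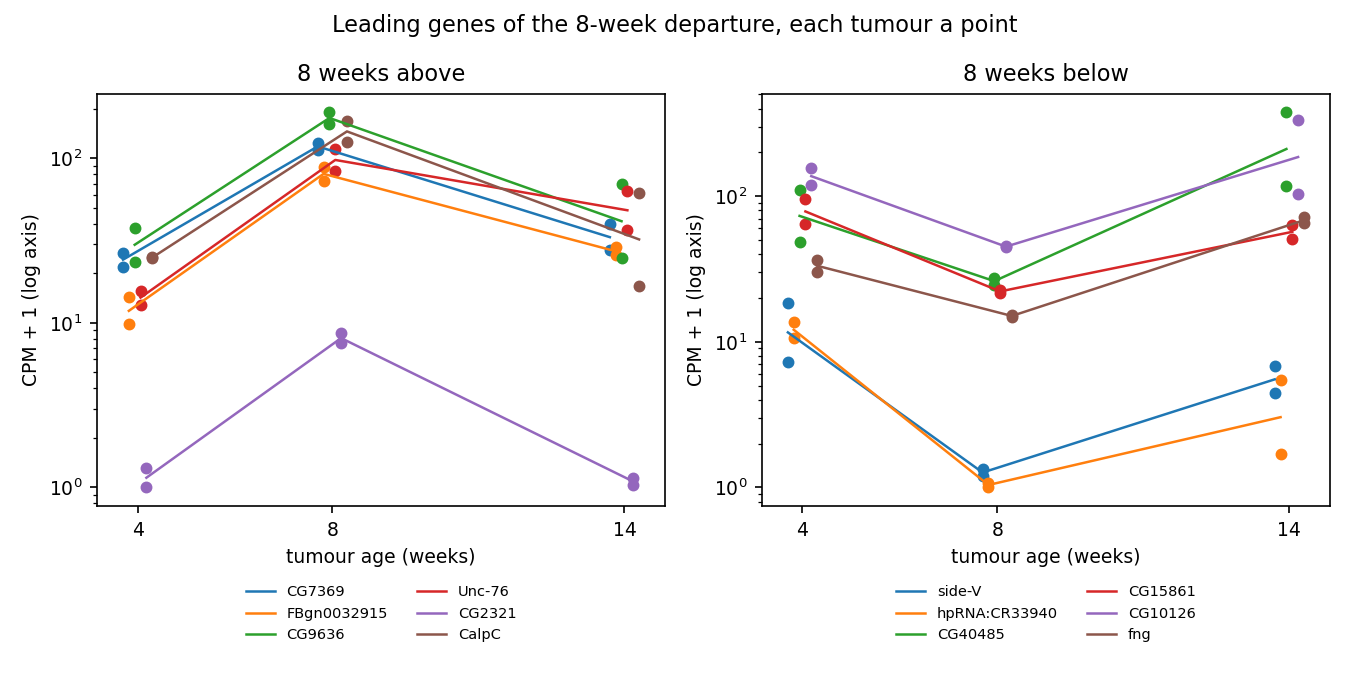
CPM (log axis, 1 added) against tumour age in weeks for the 12 genes with the smallest unadjusted p for the 8-week departure whose 8-week tumours did not overlap the other 4, 6 above (left panel) and 6 below (right panel) the line between 4 and 14 weeks, 1 colour for each gene, 1 point for each tumour and a line through the age means. The 8-week tumours of each gene lie on one side of the other 4, and no gene passed an adjusted p of 0.05.

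Single genes of growth, polarity and adhesion, chosen after their values were seen, had their highest or lowest levels at 8 weeks. Both 8-week tumours were above the other 4 in 3 of 16 growth genes, 3 of 19 polarity genes and 1 of 13 basement membrane and integrin genes, and below them in 2, 1 and 1, beside 13.2% and 9.83% of all genes. *chico*, the insulin receptor substrate, had 20.1 and 13.1 CPM at 4 weeks, 61.1 and 92.8 at 8 weeks, and 19.2 and 16.1 at 14 weeks, a departure of 2.10 (SE 0.46, limma adjusted p of 0.417). The insulin-like peptide gene *Ilp6* was the reverse, with 10.7 and 11.4 CPM after 4 weeks, 2.34 and 2.63 after 8, and 7.43 and 11.8 after 14. The 8-week tumours were thus the highest for the adaptor and the lowest for the ligand. The polarity gene *par-6* had 79.5 and 49 CPM in the 4-week tumours, 175 and 235.5 in those of 8 weeks, and 111.5 and 69 in those of 14 weeks. *cno*, which links junctions to actin, had 30.3 and 24.7 CPM at 4 weeks, 84.7 and 131 at 8 weeks, and 79 and 40.6 at 14 weeks. The integrin gene *mys* had 251 and 166 CPM after 4 weeks, 561 and 794 after 8, and 389 and 152 after 14. In *chico*, *par-6*, *cno* and *mys* both 8-week tumours were above the other 4.

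In the Hedgehog and Dpp list, 5 of 15 tested genes had both 8-week tumours above the other 4 and 0 below, beside 13.2% and 9.83% of all genes. The median departure of the list was 0.45 and was 0.06 with the length trend removed, with 8 of 15 positive. The Dpp receptor gene *tkv* had the largest departure, 1.71, with 39.1 and 15.8 CPM in the 4-week tumours, 68.8 and 116 in those of 8 weeks, and 55.2 and 15.5 in those of 14 weeks. *Mad*, which carries the Dpp signal to the nucleus, had 46.1 and 41.6 CPM at 4 weeks, 119 and 147 at 8 weeks, and 83.9 and 59.8 at 14 weeks. *smo*, the Hedgehog signal transducer, had 18.6 and 7.26 CPM after 4 weeks, 42.6 and 41.2 after 8, and 22.2 and 11.8 after 14. All 3 were highest at 8 weeks without overlap, and none passed the test. Of 15 segmentation genes 12 had a positive departure beside 52.7% of all genes, with a median of 0.57 that was 0.09 after the trend with transcript length was removed. *inv*, a paralogue of *engrailed*, had 7.69 and 11.4 CPM in the 4-week tumours, 32.1 and 27.5 in those of 8 weeks, and 9.05 and 5.42 in those of 14 weeks. The gap gene *Kr* had 18.4 and 10.2 CPM at 4 weeks, 27.6 and 30 at 8 weeks, and 7.76 and 3.32 at 14 weeks, again highest at 8 weeks.

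Among 18 Polycomb genes 13 had a positive departure and in 5 both 8-week tumours were above the other 4, beside 52.7% and 13.2% of all genes. The median of 0.47 was 0.10 with the length trend removed. *Scm*, a PRC1-associated gene, had 22.9 and 11.3 CPM after 4 weeks, 41.8 and 59.9 after 8, and 40.8 and 7.72 after 14, and *Sfmbt*, of the Pho complex, 12.9 and 9.48 CPM in the 4-week tumours, 6.57 and 5.66 in those of 8 weeks, and 8.77 and 28.6 in those of 14 weeks. *Scm* was highest and *Sfmbt* lowest at 8 weeks. In both genes the 2 tumours of 14 weeks were more than 3-fold apart.

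The lists of division genes had positive median departures that were near 0 with the length trend removed. Of 23 cyclin, Cdk and division timing genes 17 had a positive departure, with a median of 0.40. With the length trend removed 10 were positive and the median was -0.02. In 5 both 8-week tumours were above the other 4 and in 1 below. Of 30 tested replication genes 17 had a positive departure beside 52.7% of all genes, and 7 had an unadjusted p under 0.05 above the line and 0 below it, beside 7.74% and 3.21%. The median departure of 0.34 was 0.06 with the length trend removed. *dup*, which licenses replication origins, had 21.7 and 26.5 CPM at 4 weeks, 102 and 95.1 at 8 weeks, and 65 and 26.5 at 14 weeks, while *Psf1*, a subunit of the replicative helicase complex, had 45.1 and 58.2 CPM after 4 weeks, 35.8 and 19.9 after 8, and 23.6 and 97.3 after 14. Only the first had its 8-week tumours apart from the rest. The ribonucleotide reductase gene *RnrL* had the largest trend of the list, 1.16, with 71 and 56 CPM in the 4-week tumours, 113 and 120 in those of 8 weeks, and 145 and 151 in those of 14 weeks, and was ordered by age. Of 30 mitosis genes 20 had a positive departure, and in 10 both 8-week tumours were above and in 3 below the other 4, beside 13.2% and 9.83% of all genes, but with the length trend removed 15 were positive. *thr*, needed to separate sister chromatids, had 14.4 and 10.1 CPM at 4 weeks, 27.5 and 37.2 at 8 weeks, and 15.3 and 13.6 at 14 weeks.

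The chaperone gene *Hsp83*, the fly Hsp90, had 769 and 635 CPM after 4 weeks, 2156 and 2927 after 8, and 2458 and 1714 after 14. On the deposited scaling both older ages were thus above the 4-week tumours by more than 2-fold. With CPM of total reads the second 14-week tumour is less than 2-fold above the first 4-week tumour. Of 20 heat shock genes 18 had a positive trend and 18 a positive departure, beside 53.5% and 52.7% of all genes, with medians of 0.54 and 0.52, and in 9 both 14-week tumours were above both 4-week tumours, beside 17.8%. The median trend was 0.15 with CPM of total reads, with 13 positive, and the median departure 0.11 with the length trend removed, also with 13 positive. The near-identical *Hsp70* copies share reads and their single values are uncertain. Of 10 tested germline and piRNA genes 8 had a positive departure, beside 52.7% of all genes. *del*, part of the complex that marks piRNA clusters in the ovary, had 42.3 and 11.2 CPM in the 4-week tumours, 144.1 and 165 in those of 8 weeks, and 105 and 53.2 in those of 14 weeks, highest at 8 weeks.

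Several lists of short transcripts lay on the other side, and others did not. All 79 ribosomal protein genes had a negative departure, with a median of -0.74, and in 11 both 8-week tumours were below the other 4, beside 9.83% of all genes. All 70 mitochondrial ribosomal protein genes were negative as well, with a median of -0.81, 23 of them with both 8-week tumours lowest, and of 65 respiratory chain genes 3 were positive, with a median of -0.86. Without the second 14-week tumour the medians were -0.41, -0.50 and -0.50. The 29 tested histone genes, whose near-identical copies share reads, had 0 positive departures and a median of -1.17 (-0.42 with the length trend removed). In 7 cuticle protein genes, however, the median was 0.03, and in 160 long non-coding RNA genes it was -0.15, with 66 positive. *mRpL52* had 63.1 and 91.5 CPM at 4 weeks, 41.4 and 28.2 at 8 weeks, and 53.6 and 187 at 14 weeks. With the trend on transcript length removed the medians were -0.15 for the ribosomal, -0.16 for the mitochondrial ribosomal and -0.24 for the respiratory list, with 21, 20 and 9 genes above the line. Among all tested genes grouped by length, the shortest group had a median departure of -0.72, the second longest of 0.67 and the longest of 0.34.

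**Figure D5:**
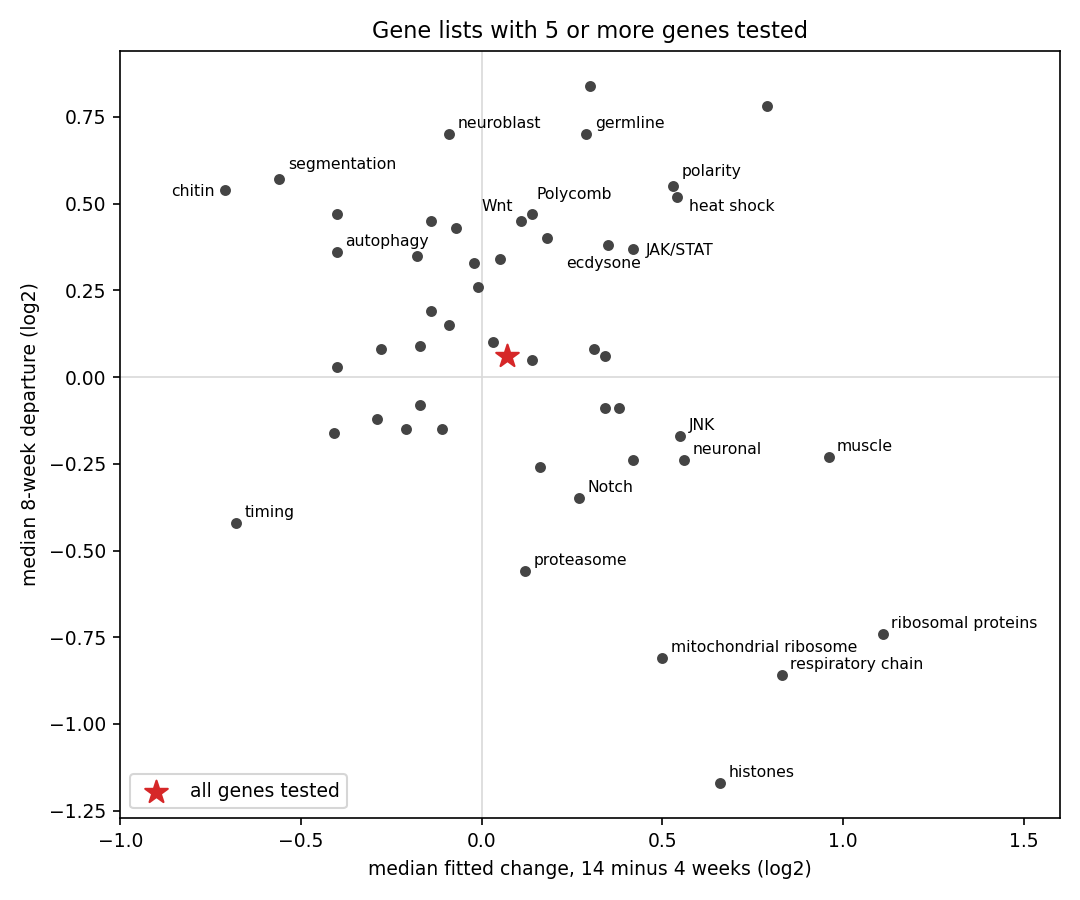
Median fitted trend from 4 to 14 weeks (x axis, log2) against median 8-week departure (y axis, log2) of each gene list with 5 or more tested genes, 1 point for each list and a star for all tested genes. The ribosomal, mitochondrial ribosomal and respiratory lists lie at positive trends and negative departures, between -0.74 and -0.86 in departure, and the segmentation list at a negative trend of -0.56.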

How the data were processed

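The authors aligned the reads to the fly genome dm6 with TopHat2 2.0.12 and Bowtie2 2.2.3 and deposited 1 table of log2 CPM values made with edgeR 3.16.5 under R 3.3.1. RNA had been amplified with SMARTSeq2. The read counter, annotation and strandedness are not given in the sources used here, so overlapping and antisense genes cannot be told apart. Removing the prior count returned whole reads in 100.0% of values (within 0.01 reads), and from these linear CPM on the deposited scaling. Of 17521 gene IDs, 17215 had a symbol in Ensembl 115 (BDGP6.54, the dm6 assembly) and 306 had none.

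The test used log2(CPM + 1) of genes that reached 1 CPM in 2 or more of the 6 tumours, in limma 3.58.1 (R 4.3.3, mean-variance trend), two-sided, with Benjamini-Hochberg adjustment over all tested genes and a threshold of 0.05. The departure is the 8-week mean minus 0.6 times the 4-week and 0.4 times the 14-week mean. The fit was tested on simulated data. The pseudocount of 1 CPM understates changes of low genes. The 6 genes with the smallest unadjusted p on each side are named where the ages compared did not overlap, with the genes the study names and the extremes of each list. Other genes were chosen after their values were seen. The members and gene lists were chosen with earlier results of these data known. Alternatives were other pseudocounts, filters, scalings, removal of a trend with transcript length, a replicate block and leaving out each tumour. Counting error only is covered by read limits. Tables were made with pandas 2.3.3 and NumPy 2.4.6 under Python 3.11.15, and figures with matplotlib 3.10.9.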

Additional observations from a re-analysis of the deposited data

How the results depend on the processing

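None of the 24 genes named for the trend or the departure reversed under any alternative. They were picked because the ages compared did not overlap in these same tumours. A reversal was therefore hardly possible, and its absence is no check on them. Their call did not change in 460 fits of 1 gene under 1 alternative, and the fits where it did change each left out a 14-week tumour. Leaving out 1 tumour in turn gave 0 to 23 called genes for the trend, 0 to 676 for the departure, 0 to 650 for any age difference and 0 to 7 for 14 against 4 weeks. The 23 came without the second and the 676 and 650 without the first 14-week tumour, where the lone tumour is assumed to vary like the other ages. With a replicate block 9 genes were called for any age difference and 14 for 14 against 4 weeks, and 0 for the trend and the departure. Whether the numbers pair the tumours is not stated, and the data did not show it for all ages: deviations of same-numbered tumours correlated at -0.12 for 4 and 8 weeks, 0.29 for 4 and 14 weeks and -0.21 for 8 and 14 weeks. With CPM of total reads 45 genes were in rising order (132 with the deposited scaling), 331 in falling order (191) and 489 had both 8-week tumours lowest (785). With the length trend removed 627 had both highest (1057). Leaving out each tumour, chosen after seeing the data, gave 247 to 527 genes in rising order, 333 to 489 in falling order, 1227 to 2084 with the 8-week tumours highest and 906 to 1697 with them lowest, as fewer samples must be in order. The mean distance within ages was 1.33 with a pseudocount of 0.1 CPM (0.93 with 1 CPM), and between ages 1.45 with 0.1 and 0.81 with 5 CPM (1.05 with 1 CPM). The causes were not tested. Genes that did not reach 1 CPM in 2 tumours were not tested at this depth.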

Other observations

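Single genes with high levels in the second 14-week tumour are given next, chosen after their values were seen. Ribosomal protein and ribosomal RNA genes were also among those farthest above the other 5 tumours. *RpL41* had 6030 CPM there and 471 to 1140 CPM in the other 5. *2SrRNA:CR45864* had 380 CPM there and 23.9 to 82.1 CPM in the other 5. The antimicrobial peptide gene *DptB* had 0.9 and 0.178 CPM after 4 weeks, 1.11 and 0.404 after 8, and 0.0404 and 60.9 after 14. The 31 antimicrobial peptide genes summed to 1.88 and 0.579 CPM in the 4-week tumours, 4.51 and 2.06 in those of 8 weeks, and 0.969 and 98.4 in those of 14 weeks. *SPE*, a protease that activates the Toll ligand, had 0.204 and 0.089 CPM at 4 weeks, 0 and 0.0809 at 8 weeks, and 4.12 and 23.9 at 14 weeks. *sog*, an inhibitor of Dpp signalling, had 41.8 CPM in the second 14-week tumour and 2.95 to 6.42 CPM in the other 5.

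The first 14-week tumour had extremes of its own. *CAH2*, a carbonic anhydrase gene, had 48 and 32.7 CPM after 4 weeks, 140 and 208 after 8, and 955 and 107 after 14. The cuticle protein gene *Cpr65Ay* had 119 and 61.9 CPM in the 4-week tumours, 24.9 and 21.7 in those of 8 weeks, and 0.121 and 49.9 in those of 14 weeks. Without the second 14-week tumour these had trends of 4.59 and -6.20 and the smallest limma adjusted p of all genes, 1.76e-05 for each, while the second tumour did not share either level. *path*, an amino acid transporter gene, had 16.7 and 15.1 CPM at 4 weeks, 73.1 and 69.3 at 8 weeks, and 178 and 26.3 at 14 weeks, and was called without that tumour, with a limma adjusted p of 0.0107 for the trend. No explanation was tested for these values.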
